A study of Arabidopsis thaliana with 6 samples.

Results

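LTI30, COR15A and COR47 are Arabidopsis genes known for their induction by cold, drought and abscisic acid, and their transcripts were followed here on 6 Affymetrix ATH1 arrays of paraquat-sprayed and mock-sprayed rosette leaves. The members were the probe sets whose annotation names 1 of these genes and no other. There was 1 such probe set for each, which makes 3 probe sets of 13513 that name a single gene and of 22746 on the array without its controls. All plants, mock-sprayed ones included, carried the flu1-1 mutation in the Landsberg erecta background, were 3 weeks old and had grown in continuous light. The groups were leaves harvested 1, 2 and 4 h after a spray of paraquat in 0.1% Tween, and leaves harvested at the same hours after 0.1% Tween alone (mock). For paraquat the sample titles state 20 mM and the treatment protocol 20 microM, and which dose was used was not settled here. Each of the 6 combinations was measured on 1 array, from RNA of 2 separate experiments pooled before labelling, with leaves of 5 to 6 plants in a sample. The spread between experiments therefore cannot be seen, and no untreated leaves or leaves without the flu mutation were compared.

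Cold acts on these genes mainly through the CBF (DREB1) transcription factors, which bind a short element in their promoters, while drought also reaches them through abscisic acid and its own promoter element. Dehydrins are disordered, very hydrophilic proteins that are thought to shield membranes and enzymes when cells lose water or freeze. LTI30 (AT3G50970, also called XERO2) and COR47 (AT1G20440, also called RD17) are dehydrins. COR15A (AT2G42540) is a small protein of the chloroplast stroma that protects chloroplast membranes during freezing. Paraquat is a redox-cycling herbicide that draws electrons from photosystem I and makes superoxide in the chloroplast. FLU is a negative regulator of chlorophyll synthesis, and flu mutants accumulate protochlorophyllide in the dark.

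The members differed most between treatments at 4 h, COR47 excepted. All 3 genes had their highest signal in mock leaves at 4 h, and in paraquat leaves COR47 was also high at that hour, while LTI30 and COR15A were not. LTI30 had signals of 403, 439 and 408 in paraquat leaves at 1, 2 and 4 h, against 510, 287 and 1430 in mock leaves. Its paraquat signals thus stayed in a narrow range, and the mock array of 4 h stood apart from the other 5 arrays. COR15A had 579, 382 and 342 in paraquat leaves at 1, 2 and 4 h, against 591, 403 and 864 in mock leaves. The treatments were close at 1 and 2 h and were furthest apart at 4 h. COR47 had 2196, 2321 and 5176 in paraquat leaves at 1, 2 and 4 h, against 2143, 1657 and 6229 in mock leaves. Both 4 h arrays were above all 4 arrays of 1 and 2 h for this gene. All 3 probe sets were above the floor, a signal of 86.2, on all 6 arrays. In whole leaves, fewer cells that express a gene and less RNA of it per cell cannot be told apart.

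**Figure D1:**
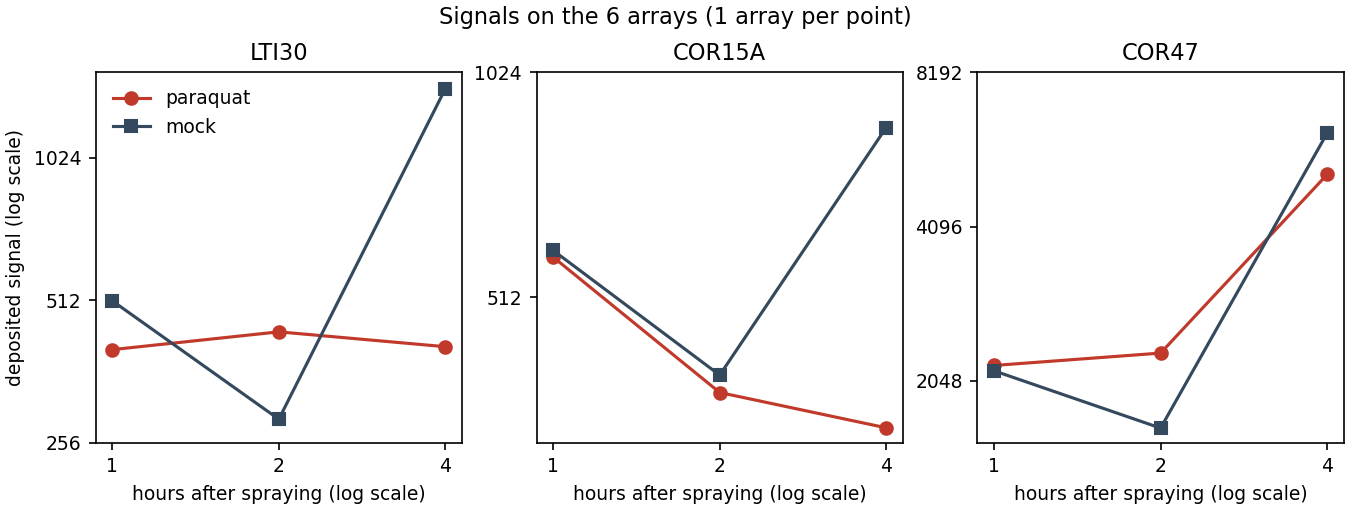
Deposited signals of LTI30, COR15A and COR47 (log scale) against hours after spraying (log scale), with circles for paraquat leaves, squares for mock leaves and 1 array per point. At 4 h LTI30 had 408 in paraquat leaves against 1430 in mock leaves, COR15A had 342 against 864, and COR47 had 5176 against 6229.

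The order of the 6 levels can be read only against differences between single arrays, since no group has a replicate. As a yardstick, 95% of the 13837 tested probe sets differed between the paraquat and mock arrays of 1 h by less than 0.56 log2 units, on the scale log2(signal + 34) used for all ratios below. For LTI30, the step from the highest array, mock at 4 h, to the next, mock at 1 h, was 1.43 log2 units, and the 4 steps below it were smaller than the yardstick. For COR47, the step of 1.15 between paraquat at 4 h and paraquat at 2 h was larger than the yardstick, and the other 4 steps, including that of 0.27 between mock and paraquat at 4 h, were smaller. For COR15A all 5 steps between neighbours were smaller, the largest being 0.52 between mock at 4 h and mock at 1 h. Its whole span was 1.25 log2 units, against 2.19 for LTI30 and 1.89 for COR47. Steps between neighbours in a sorted order tend to be small, so a step below the yardstick does not show that 2 levels are alike. The yardstick also compares treatments at the same hour. The limit that holds 95% of probe sets was wider between hours, for example 1.17 for mock leaves at 4 h over 1 h.

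The first question was how far paraquat and mock leaves differed at each hour. At 4 h LTI30 had a paraquat/mock log2 ratio of -1.73, COR15A of -1.25 and COR47 of -0.27. LTI30 and COR15A, 2 of the 3 members, were thus at least 2-fold lower with paraquat, as were 0.517% of the 13914 probe sets that passed the floor on either 4 h array. Among the 13837 tested probe sets, 1 had a lower 4 h ratio than LTI30, 25 had a lower one than COR15A and 2153 had a lower one than COR47. At 2 h the ratios were 0.56 for LTI30, -0.07 for COR15A and 0.48 for COR47. At 1 h they were -0.32, -0.03 and 0.03 in the same order. No member was 2-fold different at 1 h, where 0.457% of probe sets were higher and 0.324% lower by that much, or at 2 h, where 0.45% were higher and 0.288% lower. With 1 array per treatment and hour these ratios have no replicate check, and LTI30 and COR47 did not keep 1 sign over the 3 hours.

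The genes next to each member in the order of 4 h ratios were taken from the 7484 probe sets that name 1 gene and passed the floor on either 4 h array. LTI30 stood between AT1G11210 (-2.09) and AT2G25625 (-1.68). The next on either side, AT5G45630 and AT5G01080, had paraquat signals of 34.6 and 27.7 at 4 h, below the floor, and entered through their mock array alone, so their ratios are uncertain. COR15A stood next to AT5G39520 (-1.29) and CML41 (-1.23), a calmodulin-like gene, both above the floor on both arrays. AT3G13672 and AT5G15700, also beside it, had paraquat signals of 22.5 and 25.9 and entered through their mock array alone. COR47 stood among genes with ratios of -0.27 and -0.26 such as AT3G54980, AT5G63480, AT2G45520 and AT2G41710.

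The second question was how much of each 4 h ratio lay in the course of the mock leaves. On the log2 scale the ratio at 4 h equals the ratio at an earlier hour plus the change in paraquat leaves minus the change in mock leaves. For LTI30 the change from 2 to 4 h was -0.10 in paraquat leaves and 2.19 in mock leaves. For COR15A it was -0.14 in paraquat leaves and 1.04 in mock leaves. For COR47 it was 1.15 in paraquat leaves and 1.89 in mock leaves. At 4 h over 2 h, COR47 alone of the members was at least 2-fold higher in paraquat leaves, as were 1.66% of probe sets, and all 3 members were so in mock leaves, as were 2.66%. COR15A was close to this limit in mock leaves, and with a pseudocount 4 times larger its mock change was 0.89, short of 2-fold. In deposited signal, LTI30 at 4 h was 0.93 times its 2 h level in paraquat leaves and 4.98 times in mock leaves, COR15A 0.90 and 2.15 times, and COR47 2.23 and 3.76 times. The mock 4 h array enters both the mock change and the 4 h ratio, so these 2 values are not separate evidence.

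With 1 h as the start, the difference between the 2 changes (paraquat minus mock) was -1.41 for LTI30, -1.23 for COR15A and -0.30 for COR47, against -2.29, -1.18 and -0.74 with 2 h as the start. It thus depended on the start more for LTI30 and COR47 than for COR15A. From 1 to 4 h the log2 change of COR15A was -0.70 in paraquat leaves and 0.52 in mock leaves, so the changes in paraquat leaves and in mock leaves had opposite signs. Both were within the limits that hold 95% of tested probe sets, 1.02 in paraquat leaves and 1.17 in mock leaves. Most of the paraquat change lay between 1 and 2 h (-0.56), when mock leaves changed by about as much (-0.52). For LTI30 the change from 1 to 4 h was 0.02 in paraquat leaves and 1.43 in mock leaves. Between 1 and 2 h it was 0.12 in paraquat leaves and -0.76 in mock leaves. For COR47 the change from 1 to 4 h was 1.22 in paraquat leaves and 1.52 in mock leaves, and from 1 to 2 h it was 0.08 and -0.36. In the mock signals all 3 genes were thus lower at 2 h than at 1 h and highest at 4 h, without a steady increase. Each lower level at 2 h compares 1 array with 1 array. These differences were within 0.82, the limit that holds 95% of tested probe sets for mock leaves at 2 h over 1 h. A dip at 2 h is therefore not established, and it enlarges the mock changes from 2 to 4 h. At 4 h over 1 h, 1 of 3 members was at least 2-fold higher in paraquat leaves, as were 2.88% of probe sets, and 2 of 3 were so in mock leaves, as were 3.49%.

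**Figure D2:**
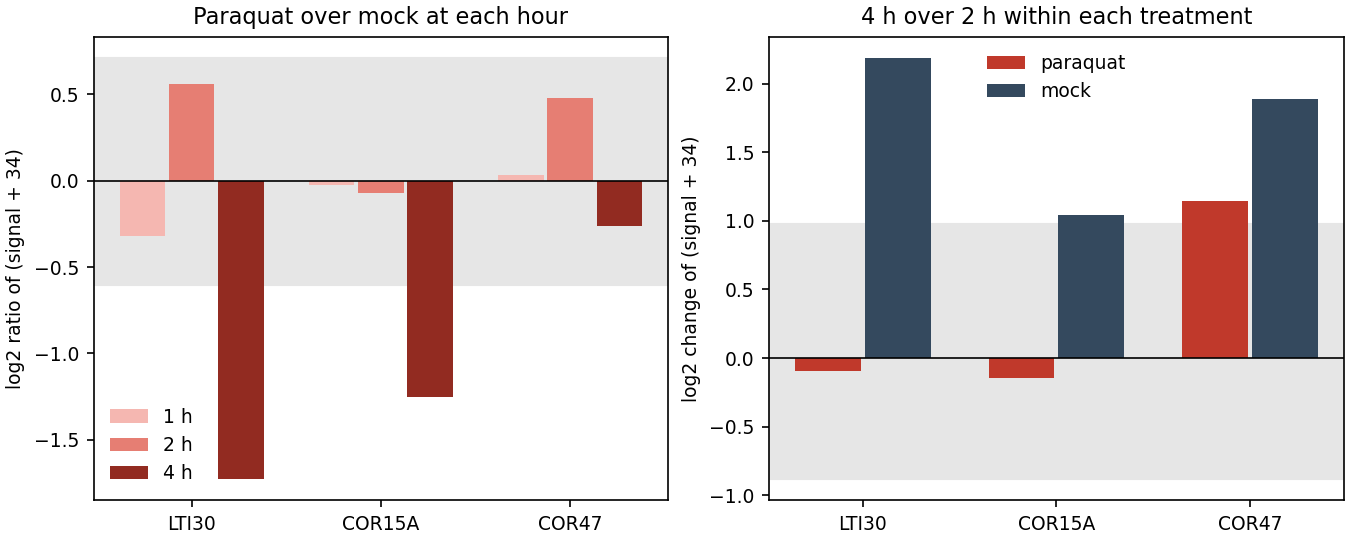
Left, paraquat/mock log2 ratio of (signal + 34) for each gene at 1, 2 and 4 h. Right, log2 change of (signal + 34) at 4 h over 2 h in paraquat leaves (left bar) and mock leaves (right bar). Each bar compares 1 array with 1 array, and the grey bands hold the middle 95% of tested probe sets for the 4 h ratio (left) and for the mock change (right). LTI30 (-0.10 in paraquat leaves, 2.19 in mock leaves) and COR15A (-0.14 and 1.04) differ between treatments on the right more than COR47 (1.15 and 1.89).

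The change from 2 to 4 h in paraquat leaves and that in mock leaves share no array, so they can be set side by side. At least 2-fold higher signals at 4 h than at 2 h were found for 235 probe sets in paraquat leaves and 376 in mock leaves, with 127 on both lists, which is 54.0% of the paraquat list and 33.8% of the mock list. COR47 was on both, and LTI30 and COR15A were on the mock list alone, though COR15A was not on it with the larger pseudocount. Over the 376 probe sets of the mock list the median log2 change was 0.81 in paraquat leaves and 1.32 in mock leaves, where the list was chosen. In paraquat leaves 32 of the 376 had a change below 0, LTI30 and COR15A among them. Over all tested probe sets the median change in paraquat leaves was -0.03. Of these probe sets 40.9% had a lower change than LTI30 and 34.8% a lower one than COR15A, so a change below 0 was common. On this list 27 probe sets had a lower paraquat change than LTI30, 22 a lower one than COR15A and 286 a lower one than COR47. The list was chosen for a high mock change, so smaller changes in paraquat leaves follow in part from the choice. It asked for a signal above the floor in mock leaves only. These ranks are a description and not a test.

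**Figure D3:**
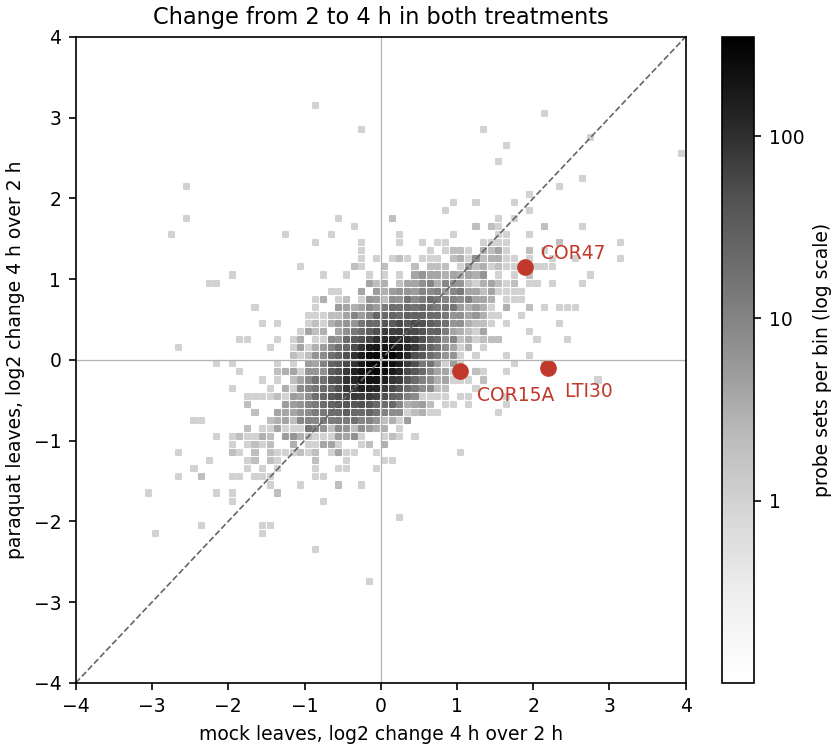
Log2 change of (signal + 34) at 4 h over 2 h in paraquat leaves (vertical axis) against mock leaves (horizontal axis). Grey squares count tested probe sets in bins (log scale), red points are the 3 genes and the dashed line marks equal change. COR47 (1.15 in paraquat leaves, 1.89 in mock leaves) lies closest of the 3 to the dashed line, and LTI30 (-0.10 and 2.19) and COR15A (-0.14 and 1.04) lie just below the horizontal line of no change in paraquat leaves. Of the tested probe sets, 1 lies outside the range plotted.

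Of the tests over all probe sets, the averaged one uses the 3 hours in place of replicates. In the tests of a slope the error is instead the departure from a straight line on log2 of the hour. The error of the comparisons between hours is described with them. All errors are moderated by limma, so they also draw on probe sets with similar signal. Averaged over the hours, with limma and harvest time as a block, the paraquat/mock log2 ratio was -0.50 ± 0.34 for LTI30, -0.45 ± 0.22 for COR15A and 0.08 ± 0.13 for COR47 (moderated SE, 3 hours). The limma adjusted p was 0.69, 0.55 and 0.88 in the same order, so 0 of 3 members passed, also at an unadjusted p under 0.05, while 0.318% of the 13837 tested probe sets passed. For LTI30 and COR47 the average mixes hours of opposite sign, while COR15A was below 0 at all 3. Without 4 h it was 0.12 for LTI30, -0.05 for COR15A and 0.26 for COR47, and without 2 h it was -1.02 ± 0.24 for LTI30 (limma adjusted p = 0.082), -0.64 for COR15A and -0.12 for COR47.

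The change of the paraquat effect with time was tested as the slope of the ratio on log2 of the hour. The slope per doubling of time was -0.61 ± 0.15 for COR15A (limma adjusted p = 0.088), -0.70 ± 0.28 for LTI30 (limma adjusted p = 0.32) and -0.15 ± 0.13 for COR47 (limma adjusted p = 0.71). By limma, 0 of 3 members passed after adjustment and 2, COR15A and LTI30, had an unadjusted p under 0.05, while 0.773% of probe sets passed and 12.2% had an unadjusted p under 0.05. This test has 1 residual degree of freedom, and COR15A passed it after quantile normalization (limma adjusted p = 0.029), with arrays centred on the 75th percentile (limma adjusted p = 0.016) and with a pseudocount 4 times larger (limma adjusted p = 0.023). It did not pass with a pseudocount 4 times smaller (limma adjusted p = 0.078), without the variance trend (0.35), without the filter on low signals (0.51) or with log2 of the hour as a linear covariate (0.999). Taking 4 h against 1 and 2 h together, a form chosen after the signals had been seen, gave -1.85 ± 0.33 for LTI30 (limma adjusted p = 0.081), -1.20 ± 0.20 for COR15A (limma adjusted p = 0.063) and -0.52 ± 0.20 for COR47 (limma adjusted p = 0.42).

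The course within each treatment was fitted as a slope on log2 of the hour. In paraquat leaves it was 0.01 ± 0.37 per doubling of time for LTI30, -0.35 ± 0.22 for COR15A and 0.61 ± 0.31 for COR47. In mock leaves it was 0.71 ± 0.37 for LTI30, 0.26 ± 0.22 for COR15A and 0.76 ± 0.31 for COR47. The fit pools the departures of both treatments from their lines, so each gene has the same SE in both. The SE of a slope is thus no measure of that treatment alone. By limma, 0 of 3 members passed in paraquat leaves, where 0% of probe sets did (0 calls, 1566 at an unadjusted p under 0.05), and 0 of 3 passed in mock leaves, where 0.882% did. COR47 in mock leaves had an unadjusted p under 0.05, as did 14.9% of probe sets there. Because the mock levels of all 3 genes were lowest at 2 h, a straight slope describes them poorly.

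The difference between hours was therefore also taken directly, with treatment as a term, a comparison added after the signals had been seen. Here the paraquat and mock arrays of an hour stand in for replicates. A gene's own error is thus how far the treatments disagree over the hours, and not a spread between plants or experiments. Moderation draws this error towards that of probe sets with similar signal, with 6.26 prior against 2 residual degrees of freedom. The SE can thus be smaller than the gene's own disagreement, and the error behind the p-values below comes mostly from other probe sets. COR47 rose by 1.52 ± 0.16 log2 units at 4 h against 2 h (moderated SE, limma adjusted p = 0.0023), and by 1.37 ± 0.16 at 4 h against 1 h (limma adjusted p = 0.00099), and it was higher at 4 h in both treatments. It was 1 of the 3 members to do so in each comparison, in which 5.11% and 8.46% of probe sets were called higher. LTI30 had 1.05 ± 0.42 at 4 h against 2 h (limma adjusted p = 0.17) and 0.72 ± 0.42 against 1 h (limma adjusted p = 0.31), and COR15A 0.45 ± 0.27 (limma adjusted p = 0.37) and -0.09 ± 0.27 (limma adjusted p = 0.87). For these 2 genes the treatments disagreed at 4 h, and this disagreement counts as error in the comparison. Some cell type markers also differed between these hours. The guard cell marker AT1G22690 fell by 0.70 log2 units at 4 h against 2 h (limma adjusted p = 0.012), and the signals of the 2 guard cell markers named alone by a probe set, of 6 listed, summed to 2647, 2643 and 1895 in paraquat leaves at 1, 2 and 4 h, against 2787, 2546 and 1508 in mock leaves. The other guard cell marker, FMA, had -0.01 ± 0.18 (limma adjusted p = 0.99). Of 8 mesophyll markers 2 were so named, with summed signals of 20220, 19248 and 21909 in paraquat leaves at 1, 2 and 4 h, against 19531, 19376 and 19922 in mock leaves. LHCB4.2, a light-harvesting protein, rose by 0.59 at 4 h against 2 h (limma adjusted p = 0.013) and RCA, Rubisco activase, had -0.03. LHCB4.2 was also higher with paraquat averaged over the hours (0.58 ± 0.09, limma adjusted p = 0.042), with ratios of 0.72, 0.63 and 0.40 at 1, 2 and 4 h. The part of these markers in the members' values was not tested.

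The dehydrins analysed had unlike 4 h ratios. Of 7 dehydrin genes listed, 3 were named alone by a probe set, and the one that is no member, AT1G54410 (HIRD11), had 11267, 12160 and 11896 in paraquat leaves at 1, 2 and 4 h, against 12602, 12038 and 11454 in mock leaves. Its ratios were between -0.16 and 0.05. Its ratio at 4 h, 0.05, lay above those of COR47 (-0.27) and LTI30 (-1.73). Averaged over hours 0 of the 3 dehydrins passed limma's test for paraquat, where 0.318% of probe sets did. At an unadjusted p under 0.05 it was also 0 of 3, against 10.3% of probe sets. Their median was -0.03 against -0.01 for all tested probe sets. At 4 h against 2 h 1 of 3, COR47, was called higher, as were 5.11% of probe sets. The median there, 1.05 against -0.02 for all, is the value of LTI30, which did not pass, and HIRD11 had -0.05. Of these 3 dehydrins 2 are the members themselves.

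COR15B, which stands next to COR15A on chromosome 2 in the TAIR10.1 gene order and encodes a close relative of the same protein, followed a shallower course. It had 730, 658 and 692 in paraquat leaves at 1, 2 and 4 h, against 892, 653 and 1035 in mock leaves. Its mock course had the same lower level at 2 h and its highest level at 4 h, and its 4 h ratio was -0.56 against -1.25 for COR15A. Whether the probe set of either gene also binds the other transcript was not tested. LTI30 stands next to the dehydrin gene XERO1 and COR47 next to the dehydrin gene ERD10, which were not analysed here.

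Of 17 cold-regulated effector genes listed, 4 were named alone by a probe set: COR15A, COR15B, COR27 and AT4G33980. COR27, a regulator that links the clock with cold responses, had 302, 521 and 387 in paraquat leaves at 1, 2 and 4 h, against 528, 642 and 293 in mock leaves. Its log2 ratio was -0.74, -0.28 and 0.37 at the 3 hours, which is the opposite order from COR15A. AT4G33980 had ratios of -0.92, -0.05 and 0.14. By limma, 0 of the 4 passed the averaged paraquat test in either direction, also at an unadjusted p under 0.05, where 0.318% and 10.3% of probe sets did. For the change with time 0 of the 4 passed, where 0.773% of probe sets did, and 3 had an unadjusted p under 0.05, where 12.2% did. These 3 did not move alike, with slopes of -0.61 for COR15A, 0.55 for COR27 and 0.53 for AT4G33980. Their median 4 h ratio was -0.21, against -0.02 for all tested probe sets, and lies between the 2 genes below 0 and the 2 above.

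Among upstream regulators, 2 of 21 genes listed were named alone by a probe set. STZ, a zinc-finger repressor induced by many stresses, had 1597, 2335 and 3281 in paraquat leaves at 1, 2 and 4 h, against 1098, 1770 and 1539 in mock leaves, and was higher with paraquat at each hour. Its averaged log2 ratio was 0.67 ± 0.13 (limma adjusted p = 0.13), and at 4 h its ratio was 1.08. SIZ1, a SUMO ligase that acts on the cold regulator ICE1, had 4 h signals of 1287 in paraquat leaves and 1308 in mock leaves. None of the 38 abscisic acid synthesis and signalling genes listed was named alone by a probe set in the annotation used, which leaves 8730 probe sets unnamed, so they were not analysed here. GI was the 1 clock gene so named of 16 listed, and it had 297 in paraquat leaves and 156 in mock leaves at 4 h, a ratio of 0.80, after 0.01 at 1 h and 0.09 at 2 h. By limma, 0 of STZ, SIZ1 and GI passed the averaged paraquat test (1 regulator at an unadjusted p under 0.05) or the test of a change with time (1 regulator and GI unadjusted), where 10.3% and 12.2% of probe sets had an unadjusted p under 0.05. The 4 reference genes so named of 11 listed had 4 h ratios of 0.01 for GAPC2, 0.06 for PEX4, 0.35 for AT4G34270 and -0.09 for AT2G28390, and between 4 h and 2 h their median change was 0.01.

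**Figure D4:**
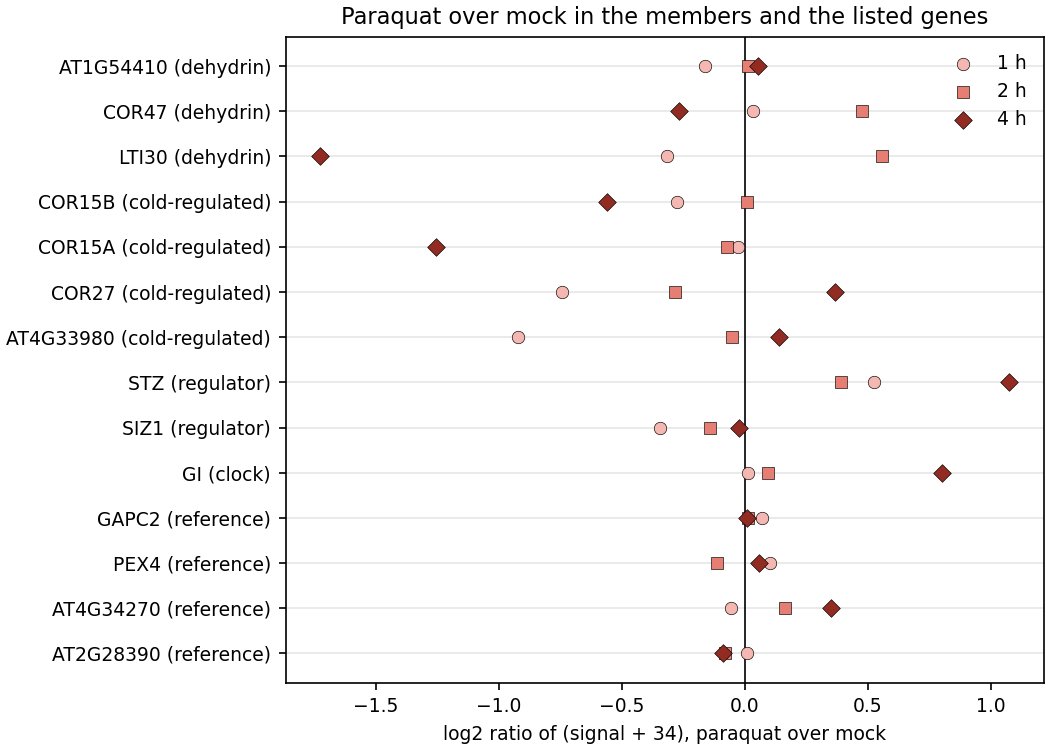
Paraquat/mock log2 ratio of (signal + 34) at 1 h (circles), 2 h (squares) and 4 h (diamonds) for the members and the other tested genes of the dehydrin, cold-regulated, regulator, clock and reference lists, 1 array per treatment at each hour. LTI30 (-1.73) and COR15A (-1.25) have the lowest 4 h ratios plotted, STZ (1.08) and GI (0.80) the highest, and the reference genes lie between -0.11 and 0.35.

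The members were also compared by their profiles over the 6 arrays, as a description only, since the arrays are the same for all genes. Pearson's r of log2(signal + 34) was 0.81 between LTI30 and COR15A, 0.73 between LTI30 and COR47 and 0.31 between COR15A and COR47. Among 982 probe sets that name 1 gene, were tested and span at least 1 log2 unit, AT1G16850 was most like both LTI30 (r = 0.92 over 6 arrays) and COR15A (r = 0.94). It had 168, 107 and 115 in paraquat leaves at 1, 2 and 4 h, against 196, 85.6 and 341 in mock leaves, the same lower level at 2 h and high mock level at 4 h. Next for LTI30 were AT5G49280 (r = 0.90), AT1G22160 (0.89), AT1G21790 (0.88) and AT2G41190 (0.87). Next for COR15A were AT5G37540 (0.87), LTI30 itself, the amylase gene AMY1 (0.81) and AT2G37870 (0.81). Leaving out LTI30 itself, the 4 h ratios of the genes nearest LTI30 and COR15A were between -0.75 and -1.54. Here and for COR47 below, the genes were picked for likeness over the same 6 arrays. Ratios like the member's are thus partly built into the choice. The genes nearest COR47 were AT5G12110 and AT1G52000 (r = 0.98 each), AT1G23040 (0.98), AT2G34810 (0.98) and AT1G09500 (0.97), with 4 h ratios between -0.33 and 0.06. No gene was shared between the 5 named for COR47 and those of the other members. With 5 genes picked from 982, an overlap would be rare in any case, so this does not set COR47 apart. AT2G34810, for example, had 229, 220 and 1076 in paraquat leaves at 1, 2 and 4 h, against 241, 220 and 1243 in mock leaves, so it too was high at 4 h in both treatments.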

How the data were processed

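Gene expression was measured on 1 ATH1 array for each of 6 combinations of treatment and hour, grouped by the sample titles. The deposited values are signal intensities on a linear scale, and MAS5 is named, without a version, per the submitters' processing notes. The authors' arrays had been scaled alike: the mean after trimming 2% was 500.04 on each, and median signals lay between 157.7 and 162.0. Scaling leaves relative changes only. Detection calls were not analysed here.

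Of 22810 probe sets, 64 controls were removed. Ratios are differences of log2(signal + 34), where 34 is the rounded 25th percentile of signals, so changes of dim probe sets are understated. Tests used limma 3.58.1 in R 4.3.3 (lmFit, eBayes with a variance trend, two-sided, Benjamini-Hochberg adjustment, threshold 0.05) on the 13837 probe sets above the 40th percentile, 86.2, on at least 3 arrays. The averaged test has 2 residual degrees of freedom, the test of a change with time 1, the slopes within treatments 2 and the comparisons between hours 2. Values after ± are moderated SEs, which mix a probe set's own residual spread with that of probe sets with similar signal. The number of arrays limits the precision. The fits were also run on simulated arrays, with independent noise drawn from limma's fitted spread. This does not test whether that spread holds for these arrays.

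Gene names came from the probe annotation, updated by gene number to TAIR10.1 symbols (13436 of 13513 matched, while 503 probe sets name several genes and 8730 none), and no build is named by the files, so no coordinates are given. The 12 gene lists held 169 genes, of which 22 had a probe set naming them alone, and 3 lists had none: abscisic acid synthesis and signalling, vascular markers, and flower and meristem markers. Where several probe sets named a listed gene, the brightest was used. Up to 6 genes of each list, the 5 genes with the most similar profile to each member and the 2 neighbours on either side in the order of 4 h ratios were named. Members and lists were chosen with earlier results of these data known. Alternatives were the pseudocount, scaling, filter, variance trend, time block, hours left out, form of the time term and fold.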

Additional observations from a re-analysis of the deposited data

How the results depend on the processing

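Of 138 alternative values of tests for the 3 genes, 131 kept their direction and their side of the threshold. In the main setting only the COR47 comparisons between hours passed, and all alternatives use the same arrays. Staying on the side that does not pass is therefore a weak check. The 108 values of single-array contrasts kept their sign, and 1 crossed the 2-fold line, COR15A in mock leaves at 4 h over 2 h (0.89 with the larger pseudocount, against 1.04). With an hour left out, the averaged paraquat/mock log2 ratio ran from -1.02 (without 2 h) to 0.12 (without 4 h) for LTI30, from -0.66 (without 1 h) to -0.05 (without 4 h) for COR15A and from -0.12 (without 2 h) to 0.26 (without 4 h) for COR47, which changed sign for LTI30 and COR47. The LTI30 slope in paraquat leaves, 0.01 per doubling of time, was -0.0015 per hour on the hour itself. The COR15A change with time passed at -0.52 (pseudocount 4 times larger), -0.59 (quantile normalization) and -0.60 (75th percentile), and not with log2 of the hour as a linear covariate (limma adjusted p = 0.999). The LTI30 difference of 4 h against 1 h, 0.72, passed without 2 h (limma adjusted p = 0.0498), where 1122 of the 13837 tested probe sets were called higher. It averages a change of 0.02 in paraquat leaves with 1.43 in mock leaves, so it is no rise shared by both treatments. COR47 at 4 h against 2 h had limma adjusted p from 0.0020 to 0.033 over its 7 alternatives, and against 1 h from 2e-06 to 0.014. No scaling moved the median ratio at any hour by over 0.1 log2 units.

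The numbers of calls over all probe sets depended on the model. For the averaged effect there were 44, 0 when dim probe sets were kept (1821 at an unadjusted p under 0.05), 1 without the variance trend, 0 without the time block (375 unadjusted) and from 7 (without 1 h) to 71 (without 4 h) with an hour left out. For the change with time there were 107, 311 with the larger pseudocount, 296 after quantile normalization, 359 centred on the 75th percentile, 0 without the filter (1958 unadjusted), 0 without the variance trend (1452), 0 with the linear covariate (415) and 51 with 4 h against 1 and 2 h. For the mock slope there were 122, 51 with the larger pseudocount, and 1 each without the filter and without the variance trend. For 4 h against 2 h there were 1314, and 368 without the filter, and for 4 h against 1 h 2277, and 1342 without the filter. At 3-fold, 14 probe sets differed at 1 h, 19 at 2 h and 69 at 4 h, against 111, 105 and 244 at 2-fold. Pairing by hour is the time block of the averaged test, and no replicate numbers pair the arrays in any other way. The cause of these differences was not tested.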

Other observations

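Some genes of the same kind were too dim for the tests. LEA4-5, a late embryogenesis abundant protein gene known from drought, had signals of 35.9, 14.0 and 67.5 in paraquat leaves at 1, 2 and 4 h, against 5.13, 15.4 and 239 in mock leaves, and the mock array of 4 h was the 1 array above the floor. LEA18 had 9.54 in paraquat leaves and 37.7 in mock leaves at 4 h and stayed below the floor on every array, as did AtLEA4-1, with signals up to 21.1. HIS1-3, a linker histone gene induced by drought, had 91.6 in paraquat leaves and 113 in mock leaves at 4 h, and was above the floor on these 2 arrays. With 1 array per group and signals this low, these values have no check.

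Further genes were picked from the annotation's symbols after the lists were written. HVA22C, of a family first known from abscisic acid responses in barley, had 377, 321 and 277 in paraquat leaves at 1, 2 and 4 h, against 349, 203 and 294 in mock leaves. RD2 had 2593, 2965 and 3678 in paraquat leaves, against 2491, 3056 and 3155 in mock leaves, and rose by 0.42 log2 units at 4 h against 1 h (limma adjusted p = 0.031). The dehydrin gene LEA (AT2G21490) was below the floor on all 6 arrays, with signals of at most 17.9.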
